A study of Homo sapiens with 10 samples.

Results

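Interferon-stimulated genes are the effector genes that cells switch on after interferons or viral nucleic acid are sensed. The set described here holds 44 of them, chosen by symbol from the families of known antiviral effectors (IFIT, IFITM, MX, OAS, the ISG15 conjugation system, PARP9 and its partners, DDX60, SAMD9, RSAD2, BST2, the IFI genes and others). All 44 were found among the 60651 gene rows of the count table, and all 44 passed the filter on low counts that kept 22495 genes. RNA was sequenced from 10 libraries in 5 groups of 2, all after 48 hours: HT29 with 10 µM VXN, HT29 with DMSO, t-hESC with 1 µM BIX, t-hESC with 10 µM VXN and t-hESC with DMSO. HT29 is a cell line grown from a human colorectal tumour, and the labels describe t-hESC as pluripotent stem cells that were transformed. The name BIX is used for compounds that inhibit G9a and GLP, which methylate H3K9. The labels give VXN by that code alone, and DMSO is the solvent. According to its title the study addressed drugs that alter the deposition of the repressive histone mark H3K9me2. The design text calls the 2 samples of a group biological replicates, and nothing says whether they came from separate cultures, so p-values reflect only how far these libraries spread.

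Type I interferons (such as interferon beta) and type III interferons (the lambda interferons) bind receptors that act through the kinases JAK1 and TYK2. The kinases activate a complex that includes STAT2 and IRF9 and binds the interferon-stimulated response element in the promoters of the effector genes. Sensors of viral RNA, among them RIG-I (RIGI) and MDA5 (IFIH1), start the production of interferon, and several sensors and factors of the pathway are themselves interferon-stimulated. Pluripotent stem cells are known to respond weakly to interferon and to hold some effectors, such as IFITM proteins, at a constitutive level.

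Gene counts per library ran from 13137026 to 24492838, so that 3 counts, the most that a count of 0 allows, correspond to 0.124 to 0.22 CPM (CPM is the count of a gene relative to the library's total, scaled by TMM factors). Replicates of a group correlated at 0.991 to 0.996 across genes, and libraries of different lines at 0.645 to 0.681. The summed level of 7 pluripotency markers was 11.7 to 15.0 CPM in HT29 libraries and 4340 to 5050 CPM in t-hESC libraries. That of 9 colorectal epithelial markers was 7770 to 7790 CPM in HT29 VXN, 10300 CPM in both HT29 DMSO libraries and 669 to 794 CPM in t-hESC, with CDX1 at or below 0.342 CPM in every library. Of 6 immune markers LYZ alone made up nearly all of the sum in HT29, 1400 to 1420 CPM in HT29 VXN and 2980 CPM in both HT29 DMSO libraries, while PTPRC, CD3E and TYROBP stood at 0 to 0.0824 CPM there. With exon lengths not at hand, levels are compared within a gene only. In bulk RNA, fewer responding cells and less RNA per responding cell cannot be told apart.

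The promoters were searched for the core of the element that the complex with STAT2 and IRF9 binds. The core was taken as GAAA, any 2 bases, then GAAA, and searched on both strands in RefSeq windows of 300 bases around annotated gene starts (GRCh38.p14, 250 bases before to 50 after). Entries were matched for 35 of the 44 genes, all but IFIT2, IFITM2, LAMP3, MX2, OAS2, OASL, TRIM22, UBA7 and USP18. The core was present in 27 of the 35 (77.1%, exact 95% interval 59.9 to 89.6%) and in 4.38% of all 27305 genes with a window, or 3.57% of 35116 windows. At least 2 copies in 1 window were found in 15 of the genes and in 0.311% of all genes. Copies may overlap, and windows of the same gene may share bases. The genes were picked as interferon effectors, so the share describes the set, and its interval refers to no wider population of genes. Stretches of 80 bases upstream of the annotated start are shown for 8 genes with the core, in capitals, and for 3 without it, all 5′ to 3′ on the gene's own strand. They include the genes with some of the highest responses, RSAD2, IFI44L, XAF1, EPSTI1 and UBE2L6.
ISG15 (chr1:1013355-1013434, plus strand): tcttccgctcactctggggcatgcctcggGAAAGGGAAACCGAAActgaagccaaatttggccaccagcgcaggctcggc
IFIT1 (chr10:89392485-89392564, plus strand): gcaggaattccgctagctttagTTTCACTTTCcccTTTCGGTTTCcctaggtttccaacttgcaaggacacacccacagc
IFI6 (chr1:27672241-27672320, minus strand): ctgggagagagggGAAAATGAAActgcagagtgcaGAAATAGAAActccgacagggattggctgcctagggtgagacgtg
RSAD2 (chr2:6877597-6877676, plus strand): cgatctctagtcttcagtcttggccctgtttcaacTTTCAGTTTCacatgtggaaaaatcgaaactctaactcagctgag
IFI44L (chr1:78620340-78620419, plus strand): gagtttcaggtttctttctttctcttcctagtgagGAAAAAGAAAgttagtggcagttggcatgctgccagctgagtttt
EPSTI1 (chr13:42992247-42992326, minus strand): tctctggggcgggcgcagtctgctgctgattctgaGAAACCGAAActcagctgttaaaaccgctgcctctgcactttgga
BST2 (chr19:17405710-17405789, minus strand): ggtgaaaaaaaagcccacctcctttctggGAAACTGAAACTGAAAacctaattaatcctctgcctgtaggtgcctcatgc
LGALS3BP (chr17:78979937-78980016, minus strand): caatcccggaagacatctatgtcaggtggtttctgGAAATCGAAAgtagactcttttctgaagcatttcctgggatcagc
UBE2L6 (chr11:57567936-57568015, minus strand): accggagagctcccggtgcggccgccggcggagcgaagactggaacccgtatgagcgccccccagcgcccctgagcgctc
XAF1 (chr17:6755367-6755446, plus strand): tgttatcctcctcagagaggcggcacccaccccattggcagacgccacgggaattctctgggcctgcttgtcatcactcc
OAS1 (chr12:112906882-112906961, plus strand): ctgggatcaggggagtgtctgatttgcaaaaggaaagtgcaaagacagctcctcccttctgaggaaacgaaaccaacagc

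In ISG15, which encodes a ubiquitin-like modifier, and in BST2, which encodes the virion-tethering protein tetherin, 2 copies of the core overlapped. In IFIT1 the cores lay on the opposite strand and read as TTTC, 2 bases, TTTC. The RSAD2 stretch belongs to the second of its annotated starts and lies within the span of the gene from its first start, whose own window had no core. Over the 27 genes 52 copies were counted, and 45 of them began within 150 bases upstream of the start, over a range of positions from -196 to 11. A copy seen from several starts was counted for each, as in IFI27, IFI44 and PLSCR1. PARP9 and DTX3L share the same core, which was counted for both genes. No core was found in the windows of CMPK2, HERC6, IFI35, OAS1, SAMD9L, SP110, UBE2L6 and XAF1, which says only that these letters are absent from these windows.

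**Figure D1:**
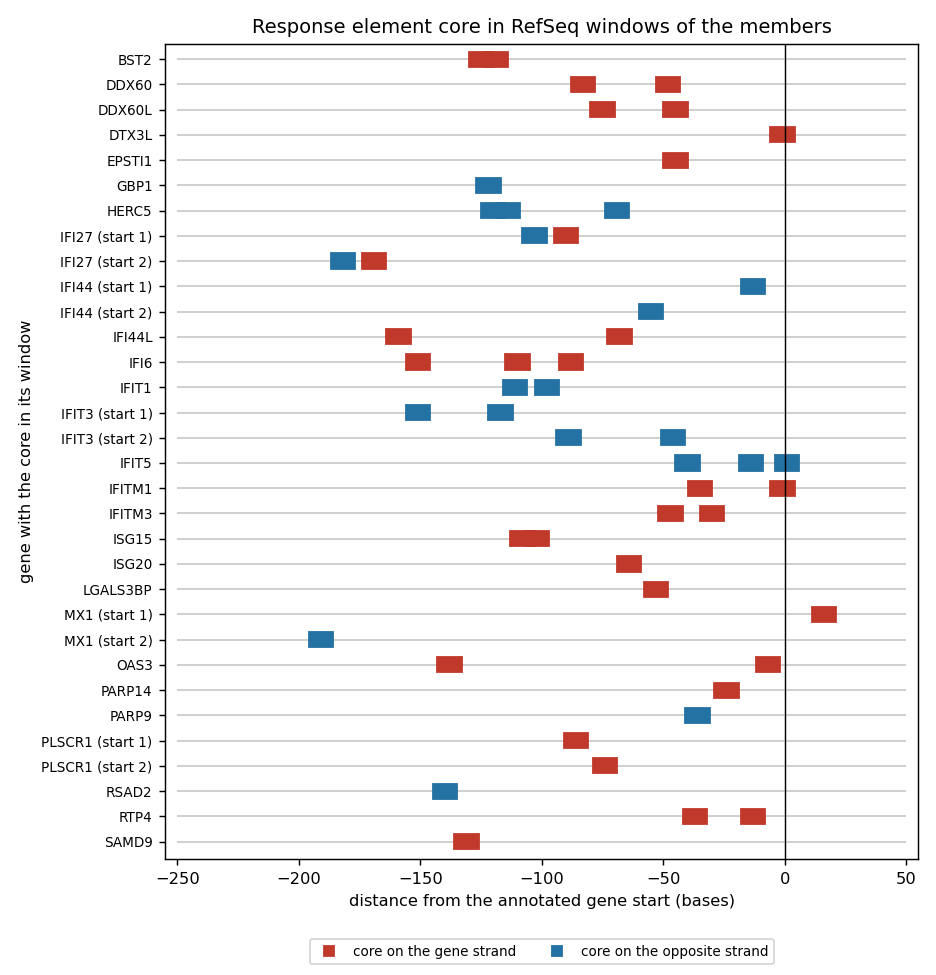
Position of the response element core (GAAA, any 2 bases, GAAA) in the RefSeq windows of the 27 genes that hold it, as distance in bases from the annotated gene start; blocks are 10 bases wide and their colour gives the strand, and genes with several annotated starts have a line for each start with a core. Most of the 52 copies, 45, begin within 150 bases upstream of the start. A copy seen from several starts is counted for each.

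Almost the entire set was higher with VXN than with DMSO in HT29. Of the 44 genes 43 were called higher and 0 lower at an adjusted p under 0.05 (edgeR's quasi-likelihood test, Benjamini-Hochberg over 22495 genes), while 33.0% of all tested genes were called higher and 26.9% lower. The median log2 fold change was 3.91 over the 44 genes and 0.055 over all tested genes. In all 44 genes the libraries of the 2 groups did not overlap (with IFITM2, the gene not called, lower in HT29 VXN). The share of all tested genes without overlap is not given here. The filter was passed only through the HT29 VXN libraries by 9 genes (MX2, GBP1, SAMD9L, RSAD2, LAMP3, RTP4, IFI44L, XAF1 and EPSTI1), which therefore had to differ, and without them 34 of 35 were called higher with a median of 3.34. The authors' deposited table called 42 of the 44 higher and 0 lower, all but IFITM2 and LGALS3BP. Its share over all genes is not given here. The members summed to 5146 and 5105 CPM in HT29 VXN libraries, against 1234 and 1233 CPM in HT29 DMSO libraries. LGALS3BP, a secreted glycoprotein, held the larger part of the DMSO sum, and without it the sums were 4290 and 4272 CPM with VXN, against 576 and 569 CPM with DMSO. These groups of 2 cannot reach an exact permutation p below 0.333 for a single value, so the calls rest on the spread shared over all genes.

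**Figure D2:**
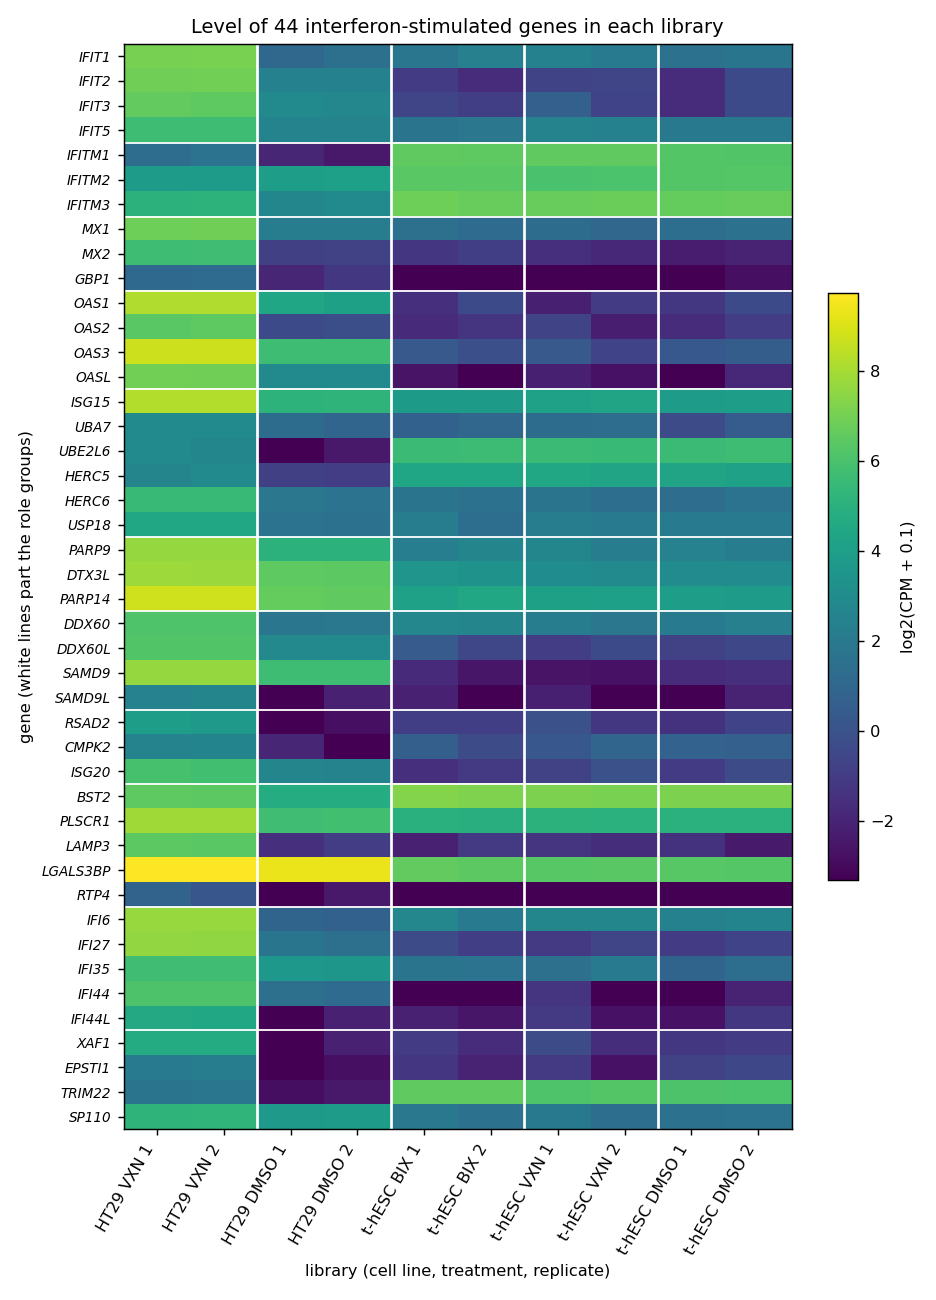
Level of each of the 44 genes in each of the 10 libraries, as log2(CPM + 0.1) on the colour scale, with genes in rows by role and libraries in columns by group. The 2 HT29 VXN columns are bright over nearly all rows, and IFITM1, IFITM2, IFITM3, UBE2L6, HERC5, BST2 and TRIM22 are brighter in the t-hESC columns.

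The IFIT family rose in all 4 of its genes. The IFIT proteins bind viral RNA, IFIT1 by its cap structure. IFIT1 had 131 and 137 CPM in HT29 VXN, against 2.06 and 2.73 CPM in HT29 DMSO. Its log2 fold change was 5.81 ± 0.087 (SE; edgeR adjusted p = 1.9e-56). The other genes of the family were also low with DMSO. In HT29 VXN libraries IFIT2 was at 119 and 124 CPM, and in HT29 DMSO libraries at 5.28 and 5.21 CPM. For IFIT3 the levels were 96.1 and 89.5 CPM in HT29 VXN and 7.33 and 6.62 CPM in HT29 DMSO. IFIT5 stood at 51.9 and 51.9 CPM in HT29 VXN libraries, against 5.60 and 5.55 CPM in HT29 DMSO libraries. All 4 genes lie side by side on chromosome 10 within the annotated span of LIPA, and the smallest rise among them was that of IFIT5, at 3.21 ± 0.08 on the log2 scale. The GTPases MX1 and MX2, which block incoming viral particles and nucleocapsids, and GBP1, a guanylate-binding protein known for its induction by interferon gamma, all rose. MX1 had 116 and 118 CPM in HT29 VXN, against 4.45 and 4.40 CPM in HT29 DMSO. The fitted log2 fold change was 4.72 ± 0.074 (SE; edgeR adjusted p = 2.58e-55). In HT29 VXN libraries MX2 was at 51.2 and 53.3 CPM, and in HT29 DMSO libraries at 0.453 and 0.470 CPM. GBP1 stayed low, at 2.10 and 2.23 CPM in HT29 VXN libraries against 0.165 and 0.342 CPM in HT29 DMSO libraries.

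All 4 oligoadenylate synthetase genes rose. OAS1, OAS2 and OAS3 make the oligoadenylate messenger that activates RNase L, and OASL lacks that activity and acts with RIG-I. For OAS1 the levels were 288 and 290 CPM in HT29 VXN and 20.7 and 17.0 CPM in HT29 DMSO. OAS1 had a log2 fold change of 3.94 ± 0.053 (SE; edgeR adjusted p = 5.55e-54). OAS2 stood at 84.2 and 92.1 CPM in HT29 VXN libraries, against 0.659 and 0.769 CPM in HT29 DMSO libraries. This was a log2 fold change of 6.93 ± 0.12 (SE; edgeR adjusted p = 1.41e-53). OAS2 was nearly silent without the drug, and OAS1 was not. OAS3 had 434 and 427 CPM in HT29 VXN, against 50.9 and 51.0 CPM in HT29 DMSO. OASL stood at 123 and 122 CPM in HT29 VXN libraries, against 7.21 and 7.13 CPM in HT29 DMSO libraries. Their log2 fold changes were 3.08 ± 0.04 for OAS3 and 4.09 ± 0.069 for OASL.

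The ISG15 conjugation system rose in all 6 of its genes. For ISG15 the levels were 302 and 300 CPM in HT29 VXN and 35.2 and 36.6 CPM in HT29 DMSO. Its log2 fold change was 3.07 ± 0.042 (SE; edgeR adjusted p = 1.8e-58). UBA7 is the activating enzyme, UBE2L6 the conjugating enzyme, HERC5 the main ligase and USP18 the protease that removes ISG15 and dampens receptor signalling. UBA7 stood at 7.43 and 7.55 CPM in HT29 VXN libraries, against 2.35 and 1.79 CPM in HT29 DMSO libraries. UBE2L6 had 7.30 and 6.29 CPM in HT29 VXN, against 0 and 0.0854 CPM in HT29 DMSO. The 2 HT29 DMSO libraries held 2 UBE2L6 counts in all and the VXN libraries 291, a ratio of 163 with an exact 95% counting interval of 44.7 to 1350. Intervals of this kind cover counting error only. HERC5 stood at 6.04 and 7.25 CPM in HT29 VXN libraries, against 0.453 and 0.427 CPM in HT29 DMSO libraries. For HERC6 the levels were 44.1 and 45.9 CPM in HT29 VXN and 3.58 and 3.07 CPM in HT29 DMSO. USP18 stood at 21.9 and 21.9 CPM in HT29 VXN libraries, against 3.09 and 2.99 CPM in HT29 DMSO libraries. On the log2 scale the fitted changes were 3.89 ± 0.23 for HERC5, 3.75 ± 0.10 for HERC6 and 1.85 ± 0.17 for UBA7.

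RSAD2 (viperin) and CMPK2 are neighbours that act on nucleotides, and ISG20 is an exonuclease of RNA. RSAD2 had 15.9 and 13.5 CPM in HT29 VXN, against 0 and 0.0427 CPM in HT29 DMSO. The counts were 629 in the 2 VXN libraries and 1 in the 2 DMSO libraries, a ratio of 704 with an interval of 126 to 27900. CMPK2 stood at 5.60 and 5.78 CPM in HT29 VXN libraries, against 0.165 and 0 CPM in HT29 DMSO libraries. For ISG20 the levels were 60.3 and 55.4 CPM in HT29 VXN and 6.02 and 5.64 CPM in HT29 DMSO. RSAD2 and CMPK2 were both close to 0 without the drug, and ISG20 was not. The annotated spans of RSAD2 and CMPK2 overlap on opposite strands, and the library kit does not mark strand, so reads in the overlap cannot be told apart.

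The 5 genes with IFI names all rose. IFI6 stood at 213 and 214 CPM in HT29 VXN libraries, against 1.77 and 1.54 CPM in HT29 DMSO libraries. The fitted log2 fold change was 7.0 ± 0.083 (SE; edgeR adjusted p = 6.81e-62). IFI6, a membrane protein that protects cells from flavivirus replication and cell death, had the smallest adjusted p of the set in this comparison. IFI27 had 198 and 191 CPM in HT29 VXN, against 3.25 and 2.69 CPM in HT29 DMSO. IFI44 stood at 67.0 and 67.9 CPM in HT29 VXN libraries, against 2.72 and 2.26 CPM in HT29 DMSO libraries. For IFI35 the levels were 53.9 and 52.5 CPM in HT29 VXN and 12.6 and 12.2 CPM in HT29 DMSO. IFI35, a partner of NMI, already had a clear level with DMSO. IFI44L, the neighbour of IFI44, was at 23.7 and 21.6 CPM in HT29 VXN libraries, against 0 and 0.128 CPM in HT29 DMSO libraries. Its counts were 969 with VXN and 3 with DMSO, a ratio of 362 with an interval of 123 to 1760.

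Other genes also started from 3 or fewer counts in the 2 HT29 DMSO libraries together. XAF1, a pro-apoptotic partner of XIAP, had 26.0 and 26.5 CPM in HT29 VXN libraries, against 0 and 0.128 CPM in HT29 DMSO libraries, with 1117 and 3 counts in all and a ratio of 417 (142 to 2020). EPSTI1 had 3.98 and 4.36 CPM with VXN, against 0 and 0.0427 CPM with DMSO, a ratio of 198 (35.1 to 7870). SAMD9L, a growth restriction factor, had 246 counts with VXN and 3 with DMSO, a ratio of 91.8 (31 to 448). RTP4, a chaperone of receptors that also binds viral RNA, had 58 and 2 counts, a ratio of 32.5 (8.59 to 274). TRIM22, a ubiquitin ligase, had 137 and 3 counts, a ratio of 51.1 (17.1 to 251). The paralogue of SAMD9L, SAMD9, started from a high level and rose less, with 204 and 206 CPM with VXN, against 51.7 and 51.7 CPM with DMSO.

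Membrane and secreted members covered the widest range. LAMP3 stood at 88.8 and 85.8 CPM in HT29 VXN libraries, against 0.247 and 0.427 CPM in HT29 DMSO libraries. LAMP3 had a log2 fold change of 8.00 ± 0.13 (SE), but it passed the filter only through the HT29 VXN libraries and had to differ. LAMP3 is a lysosomal membrane protein and was low without VXN. BST2 had 89.7 and 88.2 CPM in HT29 VXN, against 27.1 and 27.0 CPM in HT29 DMSO. This was a log2 fold change of 1.72 ± 0.051 (SE; edgeR adjusted p = 1.17e-39). PLSCR1 stood at 238 and 235 CPM in HT29 VXN libraries, against 53.0 and 54.5 CPM in HT29 DMSO libraries. PLSCR1, a scramblase that also limits virus entry, rose by 2.14 ± 0.04 on the log2 scale. For LGALS3BP the levels were 856 and 833 CPM in HT29 VXN and 657 and 664 CPM in HT29 DMSO. It was the smallest call of the set, 0.35 ± 0.03.

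The ADP-ribosylation genes PARP9, DTX3L and PARP14 rose by 2.62 ± 0.048, 1.33 ± 0.039 and 2.18 ± 0.038 on the log2 scale. PARP9 and DTX3L form a complex, lie head to head and overlap, so that reads in the overlap cannot be assigned without strand. DTX3L stood at 226 and 218 CPM in HT29 VXN libraries, against 89.8 and 86.1 CPM in HT29 DMSO libraries. The helicase genes DDX60 and DDX60L rose by 4.33 ± 0.086 and 3.34 ± 0.074, and SP110, a nuclear body protein, by 1.42 ± 0.076. In the IFITM family, whose proteins block fusion of viral and cell membranes, IFITM1 and IFITM3 rose and IFITM2 did not pass the test. IFITM3 had 33.7 and 34.8 CPM in HT29 VXN, against 6.18 and 7.26 CPM in HT29 DMSO. IFITM2 stood at 15.0 and 14.3 CPM in HT29 VXN libraries, against 15.7 and 16.4 CPM in HT29 DMSO libraries. The log2 fold change of IFITM2 was -0.13 ± 0.081 (edgeR adjusted p = 0.164). These 3 genes are related in sequence, and the sources used here do not say how the authors' counting treated any shared reads.

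**Figure D3:**
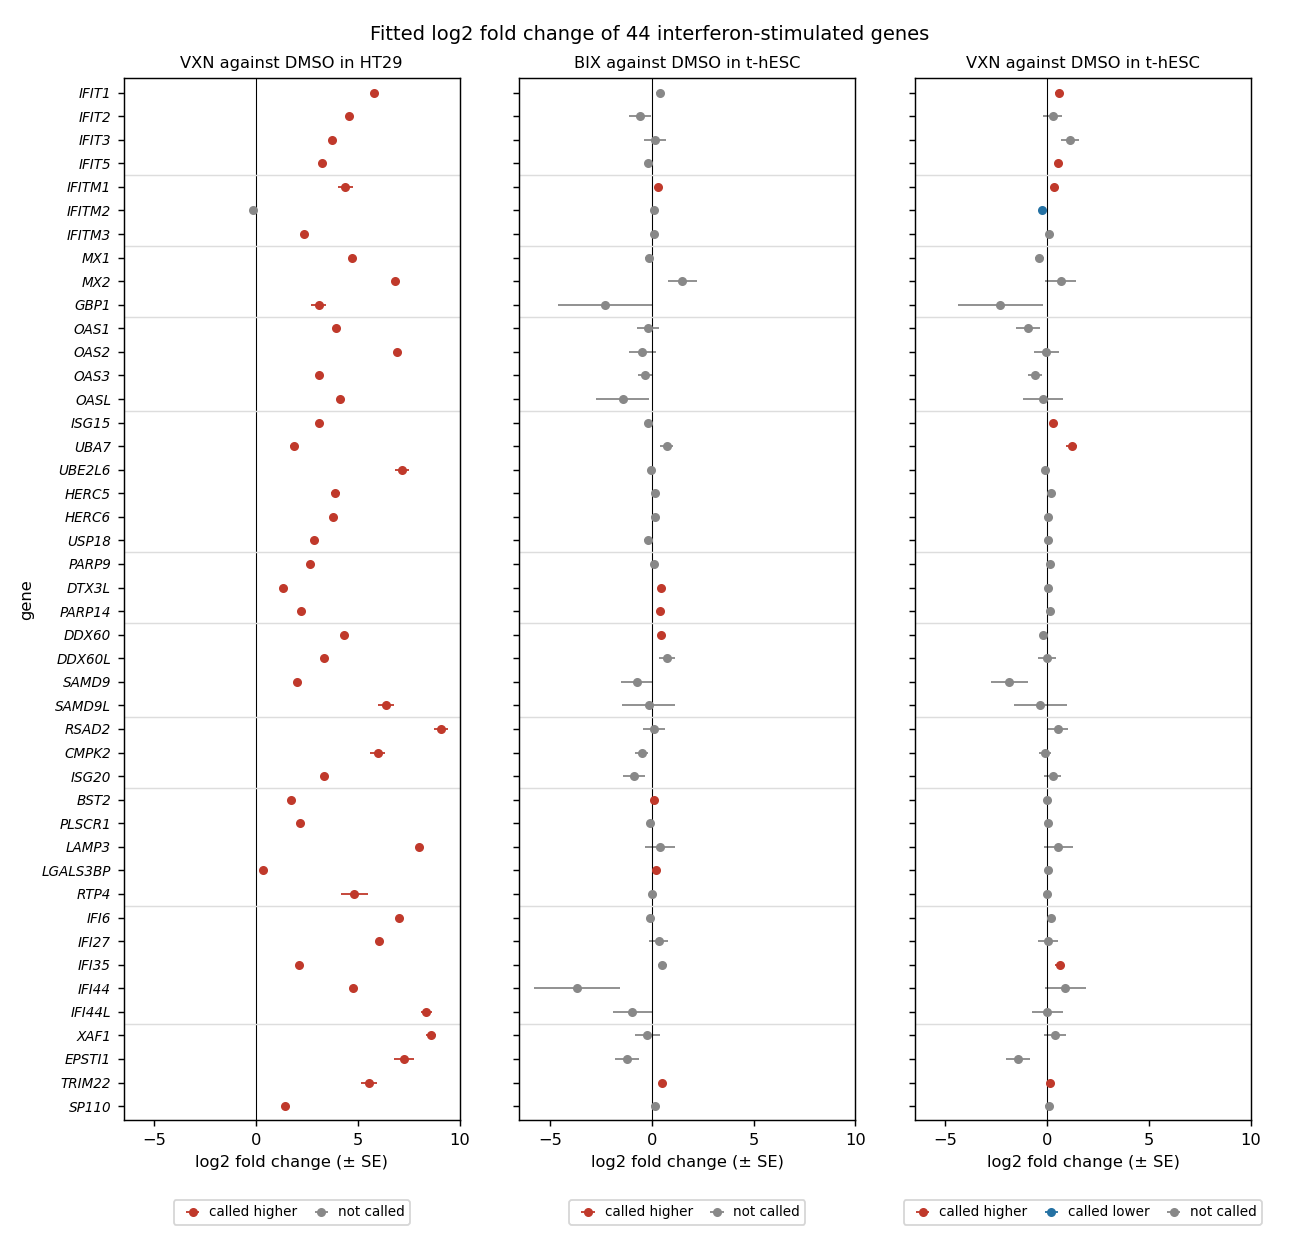
Fitted log2 fold change with its standard error for each of the 44 genes under VXN in HT29, BIX in t-hESC and VXN in t-hESC; red points were called higher, blue lower and grey not called. In HT29 43 genes lie to the right of 0 with narrow bars, while in t-hESC most points lie near 0 and the wide bars belong to genes with few or 0 counts.

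Genes without the core responded as well. The 8 genes whose windows lacked it had a median log2 fold change of 4.96 in HT29, the 27 with it 3.34 and the 9 without an entry 4.53. Each median includes genes that passed the filter only through HT29 VXN and had to differ. These are XAF1 and SAMD9L without the core, and MX2 and LAMP3 without an entry. With the core they are RSAD2, IFI44L, EPSTI1, GBP1 and RTP4. The classes were not compared by a test.

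The ligands and the signalling genes upstream of the set were read in the same libraries, from lists of 9 ligands, 9 receptors and kinases, 11 factors and negative regulators and 16 sensors and adaptors. In HT29 VXN libraries 5 of the 5 ligand genes that passed the filter were called higher, but IFNB1, IFNL1, IFNL2 and IFNL3 passed it only through those libraries and had to differ, so the count is no support for a rise of the list. IFNE, the other ligand, also passed through HT29 DMSO. IFNB1, interferon beta, had 36 and 37 counts in HT29 VXN libraries and 0 in the other 8 libraries, at least 27.2-fold higher than HT29 DMSO when 0 is taken as 3 counts over the group. The lambda interferon IFNL1 had 117 counts in the 2 VXN libraries and 2 in the 2 DMSO libraries, a ratio of 65.5 (17.7 to 547). IFNL2 and IFNL3, near-identical copies, were at least 14.9-fold and 14.6-fold higher by the same floor. IFNA1, IFNA2, IFNK and IFNG did not pass the filter, with at most 0.0507 CPM in any library.

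Of the 11 factors 8 were called higher and 1 lower, beside 33.0% higher and 26.9% lower over all tested genes. For IRF7 the levels were 164 and 163 CPM in HT29 VXN and 28.5 and 26.9 CPM in HT29 DMSO. Its log2 fold change was 2.56 ± 0.05 (SE; edgeR adjusted p = 4.93e-50). IRF7 is the factor that amplifies interferon production. IRF9 and STAT2 rose by 3.21 ± 0.094 and 1.41 ± 0.05. PIAS1, an inhibitor of cytokine signalling, was the gene of that list called lower, at -0.29 ± 0.046. Receptors and kinases changed less, with 5 called higher and 1 lower. JAK1 and JAK2 rose by 0.95 ± 0.039 and 1.69 ± 0.11, while IFNAR1, the receptor chain for type I interferon, had a value of -0.05 ± 0.058 and TYK2 one of -0.10 ± 0.061. Of the 16 sensors and adaptors 12 were called higher and 3 lower. Among those called higher, ZBP1 passed the filter only through the HT29 VXN libraries and had to differ. IFIH1 stood at 96.7 and 97.2 CPM in HT29 VXN libraries, against 8.98 and 9.27 CPM in HT29 DMSO libraries. RIGI had 53.0 and 51.5 CPM in HT29 VXN, against 7.25 and 7.47 CPM in HT29 DMSO. NLRC5, a regulator of class I antigen presentation genes, had 24.6 and 25.9 CPM with VXN, against 0.247 and 0.128 CPM with DMSO. EIF2AK2 (PKR), which halts translation on sensing double-stranded RNA, rose by 1.61 ± 0.039. The genes of that list called lower were CGAS, STING1 and IKBKE, with -0.22 ± 0.082, -0.61 ± 0.11 and -0.53 ± 0.10. CGAS and STING1 belong to the pathway that senses cytosolic DNA.

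**Figure D4:**
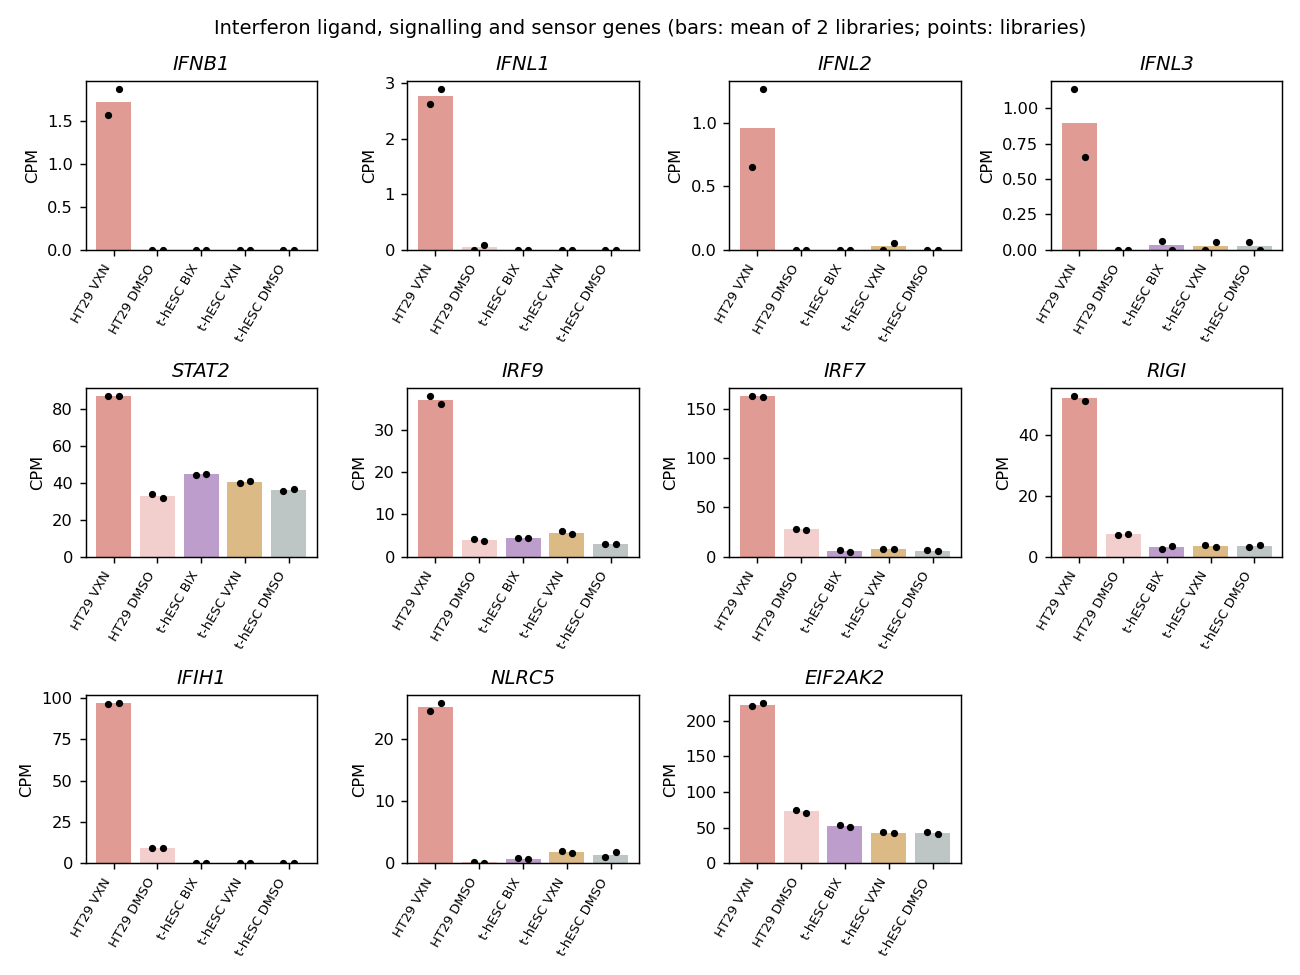
CPM of 11 ligand, signalling and sensor genes by group, with bars for the mean of 2 libraries and points for the libraries, each panel with its own axis from 0. HT29 VXN is the highest group in all 11 panels, and IFNB1 has counts in no other group. The genes shown were picked from the lists by p or with their values known, so this pattern follows in part from the choice. IFNB1, IFNL1, IFNL2 and IFNL3 passed the filter only through HT29 VXN. Genes not shown go otherwise, such as SOCS1, highest in t-hESC VXN, and CGAS, highest in HT29 DMSO.

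In t-hESC few genes of the set passed the test under BIX. Of the 44 genes 7 were called higher (15.9%) and 0 lower (0.0%), beside 10.9% of all tested genes called higher and 12.2% lower, and the median log2 fold change was 0.046 against 0.001 over all genes. The share called higher was thus near the background. TRIM22 stood at 92.5 and 95.0 CPM in t-hESC BIX libraries, against 67.9 and 65.4 CPM in t-hESC DMSO libraries. The fitted log2 fold change was 0.49 ± 0.049 (SE; edgeR adjusted p = 1.82e-12). For IFITM1 the levels were 94.0 and 90.8 CPM in t-hESC BIX and 76.2 and 74.1 CPM in t-hESC DMSO. IFITM1 had a log2 fold change of 0.30 ± 0.048 (SE; edgeR adjusted p = 1.24e-06). These 2 calls held under all 17 alternatives to the main processing. PARP14 stood at 17.9 and 22.8 CPM in t-hESC BIX libraries, against 16.2 and 14.5 CPM in t-hESC DMSO libraries. The rise of PARP14, 0.40 ± 0.092, was not called without t-hESC BIX replicate 2, at 0.23 (edgeR adjusted p = 0.154). DTX3L, with 11.3 and 9.83 CPM under BIX against 7.80 and 7.82 CPM under DMSO, rose by 0.44 ± 0.12, and without t-hESC BIX replicate 1 its value was 0.33 (edgeR adjusted p = 0.13). The other calls under BIX were lost when single libraries were left out. DDX60 had 6.56 and 6.09 CPM in t-hESC BIX, against 3.96 and 5.09 CPM in t-hESC DMSO. Its rise of 0.47 ± 0.15 was not called without t-hESC BIX replicate 1, at 0.42 (edgeR adjusted p = 0.151), nor without t-hESC DMSO replicate 1, at 0.31 (edgeR adjusted p = 0.253).

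LGALS3BP, at 95.5 and 87.4 CPM under BIX against 82.4 and 78.5 CPM under DMSO, rose by 0.19 ± 0.047. The call was lost without t-hESC BIX replicate 1, at 0.12 (edgeR adjusted p = 0.14), and without t-hESC DMSO replicate 2, at 0.14 (edgeR adjusted p = 0.0848). BST2 stood at 158 and 149 CPM in t-hESC BIX libraries, against 144 and 142 CPM in t-hESC DMSO libraries. Its value, 0.10 ± 0.039, had an edgeR adjusted p of 0.0453 and missed the threshold in 10 of 17 alternatives, in which the adjusted p reached 0.47. ISG15 had 13.7 and 13.6 CPM under BIX against 14.8 and 15.8 CPM under DMSO, a log2 fold change of -0.17 ± 0.094 (edgeR adjusted p = 0.206). It was lower in both BIX libraries, by an amount that did not pass the test. For IFIT1 the levels were 3.34 and 4.99 CPM in t-hESC BIX and 2.97 and 3.25 CPM in t-hESC DMSO. MX1 stood at 2.71 and 2.27 CPM in t-hESC BIX libraries, against 2.53 and 2.97 CPM in t-hESC DMSO libraries. OAS1 had 0.252 and 0.660 CPM in t-hESC BIX, against 0.330 and 0.659 CPM in t-hESC DMSO. IFIT1, MX1 and OAS1 had log2 fold changes of 0.40 ± 0.19, -0.14 ± 0.21 and -0.20 ± 0.54, none of them called with all libraries, and the libraries of the groups overlapped for MX1 and OAS1. Without t-hESC BIX replicate 1 IFIT1 was called, at 0.68 (edgeR adjusted p = 0.0284), and over the libraries left out in turn its value ran from 0.096 to 0.68. The 2 libraries of a group did not overlap with those of the other in 21 of the 44 genes. A gene without a difference parts in this way with a probability of 0.333. The share over all tested genes is not given here, so the count is no sign of a response. The authors' deposited table for BIX called 0 of the 44, and at an unadjusted p under 0.05 edgeR gave 15. The shares of all genes by these rules are not given here, so neither count can be set against a background.

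At the same dose as in HT29, VXN changed few genes of the set in t-hESC. Called higher were 7 genes (15.9%) and called lower 1 (2.27%), beside 14.5% and 14.6% of all tested genes, and the median was 0.05 against 0.004 over all genes. The share called higher was near the background. UBA7, the ISG15-activating enzyme, moved most among the called genes, with 2.33 and 2.48 CPM under VXN against 0.714 and 1.32 CPM under DMSO and a log2 fold change of 1.21 ± 0.27 (edgeR adjusted p = 0.000317). IFITM1 stood at 94.7 and 92.2 CPM in t-hESC VXN libraries, against 76.2 and 74.1 CPM in t-hESC DMSO libraries. This was a log2 fold change of 0.32 ± 0.047 (SE; edgeR adjusted p = 1.6e-07). For IFITM2 the levels were 64.5 and 66.6 CPM in t-hESC VXN and 75.1 and 79.6 CPM in t-hESC DMSO. Its log2 fold change was -0.24 ± 0.049 (SE; edgeR adjusted p = 7.51e-05). UBA7, IFITM1 and IFITM2 kept their calls under all 17 alternatives.

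Each of the other 5 calls was lost when 1 of the libraries was left out. IFIT1 stood at 5.32 and 4.06 CPM in t-hESC VXN libraries, against 2.97 and 3.25 CPM in t-hESC DMSO libraries. The fitted log2 fold change was 0.58 ± 0.18 (SE; edgeR adjusted p = 0.00957). Without t-hESC VXN replicate 1 it was 0.38 (edgeR adjusted p = 0.243) and without t-hESC DMSO replicate 1 it was 0.52 (edgeR adjusted p = 0.075). IFIT5, with 5.62 and 5.19 CPM under VXN against 3.79 and 3.77 CPM under DMSO, rose by 0.51 ± 0.15, and the adjusted p was 0.072 without t-hESC VXN replicate 1 and 0.0581 without t-hESC DMSO replicate 2. ISG15 had 17.9 and 19.6 CPM in t-hESC VXN, against 14.8 and 15.8 CPM in t-hESC DMSO. Its rise of 0.29 ± 0.084 had an adjusted p of 0.121 without t-hESC VXN replicate 2 and of 0.0723 without t-hESC DMSO replicate 1. IFI35, with 2.69 and 3.89 CPM under VXN against 1.76 and 2.54 CPM under DMSO, rose by 0.60 ± 0.21, and its value was 0.30 without t-hESC VXN replicate 2 (edgeR adjusted p = 0.494) and 0.37 without t-hESC DMSO replicate 1 (edgeR adjusted p = 0.301). TRIM22, at 70.9 and 74.5 CPM under VXN against 67.9 and 65.4 CPM under DMSO, had 0.13 ± 0.05, and the call was lost in 12 of 17 alternatives with an adjusted p of up to 0.351. Without t-hESC DMSO replicate 1 the number of called members was 4 in place of 8. MX1, OAS1 and BST2 were not called. MX1 stood at 2.33 and 1.92 CPM in t-hESC VXN libraries, against 2.53 and 2.97 CPM in t-hESC DMSO libraries. For OAS1 the levels were 0.120 and 0.395 CPM in t-hESC VXN and 0.330 and 0.659 CPM in t-hESC DMSO. BST2 stood at 146 and 141 CPM in t-hESC VXN libraries, against 144 and 142 CPM in t-hESC DMSO libraries. The libraries overlapped for OAS1 and BST2 and not for MX1, with log2 fold changes of -0.38 ± 0.21 for MX1, -0.94 ± 0.59 for OAS1 and 0.004 ± 0.039 for BST2. The authors' deposited table for VXN in t-hESC called 0 of the 44, and at an unadjusted p under 0.05 edgeR gave 12. The shares of all genes by these rules are not given here, so neither count can be set against a background. The libraries of the 2 groups did not overlap in 17 of the 44 genes. A gene without a difference parts in this way with a probability of 0.333. The share over all tested genes is not given here, so the count is no sign of a response.

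BIX and VXN were set against the same 2 t-hESC DMSO libraries, and their doses differed, so their values stand side by side with no test between them. IFITM1 had 0.30 ± 0.048 under BIX and 0.32 ± 0.047 under VXN, and TRIM22 had 0.49 ± 0.049 under BIX and 0.13 ± 0.05 under VXN. Upstream, BIX gave 1 called higher of 9 receptors and kinases, 2 higher and 3 lower of 11 factors, and 3 higher of 16 sensors, beside 10.9% of all tested genes called higher and 12.2% lower. VXN gave 2 higher of 9 receptors and kinases, 4 higher and 0 lower of 11 factors, and 2 lower of 16 sensors, beside 14.5% higher and 14.6% lower. IRF9 was 0.56 ± 0.18 under BIX and 0.93 ± 0.16 under VXN. None of the 5 tested ligand genes was called in t-hESC by edgeR under either compound, and at most 1 count of any of IFNL2 and IFNL3 was seen in a t-hESC library. At an unadjusted p under 0.05 edgeR gave 0 of the 5 under either compound. The difference of the VXN effect between the lines was not called for any ligand, with t-hESC libraries at or near 0.

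The VXN effect differed between the lines in most of the set. The interaction test called the HT29 effect higher than the t-hESC effect in 40 of 44 genes (90.9%) and lower in 0, beside 22.9% and 20.3% of all tested genes, with a median difference of 3.96. Without the 9 genes that passed the filter only through HT29 VXN, 33 of 35 were called. The exceptions were IFITM2, UBA7, GBP1 and RTP4, of which GBP1 and RTP4 had at most 1 count in any t-hESC library. UBA7 rose in both lines, and its difference was 0.64 ± 0.34 (edgeR adjusted p = 0.128). IFIT1 gave a difference of 5.22 ± 0.25, MX1 of 5.10 ± 0.25, OAS1 of 4.88 ± 0.62, ISG15 of 2.78 ± 0.10 and BST2 of 1.71 ± 0.065. For 37 of the 44 genes HT29 VXN was the group with the highest mean level, for 5 it was t-hESC BIX, and t-hESC VXN and t-hESC DMSO led for 1 each.

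**Figure D5:**
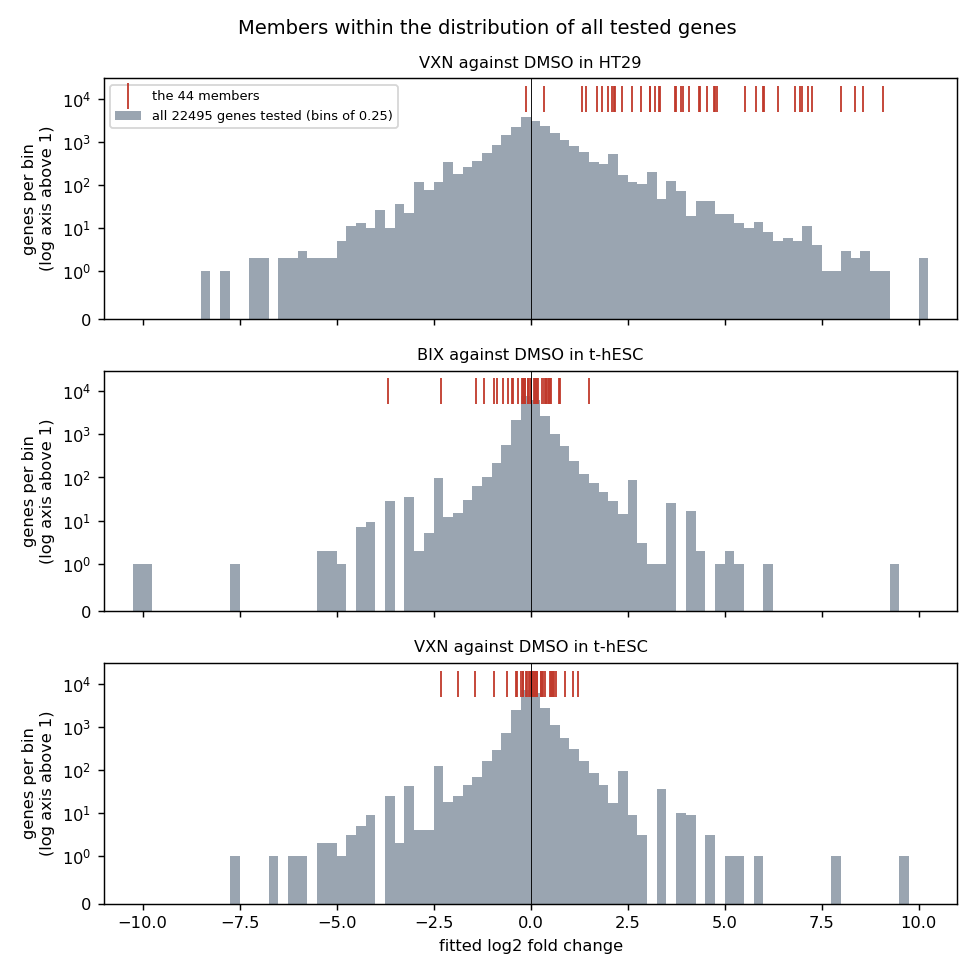
Number of genes per bin of fitted log2 fold change over all 22495 tested genes (grey bars, count axis logarithmic above 1), with the 44 genes of the set as red ticks, for VXN in HT29, BIX in t-hESC and VXN in t-hESC. In HT29 the ticks run from -0.13 to 9.07 with a median of 3.91, and in t-hESC their medians are 0.046 and 0.05.

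Under DMSO the lines differed in most of the set, in both directions. HT29 was higher than t-hESC in 24 of the 44 genes (54.5%) and lower in 14 (31.8%), beside 38.9% and 45.6% of all tested genes, and IFIT1, HERC6, SAMD9L, LAMP3, RTP4 and IFI44L were not called. Libraries of the lines did not overlap in 40 of the 44, and the share of all tested genes without overlap is not given here. The all-gene median of this comparison was -0.12, and upper-quartile factors moved it to -0.23. Among the genes higher in HT29 were all 4 OAS genes, MX1, MX2, GBP1, 3 of 4 IFIT genes, and PARP9, DTX3L and PARP14. Of these, OAS2, MX2 and GBP1 were low in both lines, at 0 to 0.769 CPM in the DMSO libraries. OAS3 had 50.9 and 51.0 CPM in HT29 DMSO, against 1.10 and 1.37 CPM in t-hESC DMSO. SAMD9 stood at 51.7 and 51.7 CPM in HT29 DMSO libraries, against 0.220 and 0.235 CPM in t-hESC DMSO libraries. SAMD9 had a log2 fold change of 7.78 ± 0.15 (SE; edgeR adjusted p = 5.73e-51). For OASL the levels were 7.21 and 7.13 CPM in HT29 DMSO and 0 and 0.188 CPM in t-hESC DMSO. OASL and SAMD9 thus stood at trace level in t-hESC and at a clear level in HT29.

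Lower in HT29 were all 3 IFITM genes, UBE2L6, HERC5, USP18, RSAD2, CMPK2, BST2, IFI6, XAF1, EPSTI1, TRIM22 and DDX60. Of these, RSAD2, XAF1 and EPSTI1 were near trace level in both lines, at 0 to 0.612 CPM in the DMSO libraries. IFITM1 stood at 0.165 and 0.0854 CPM in HT29 DMSO libraries, against 76.2 and 74.1 CPM in t-hESC DMSO libraries. This was a log2 fold change of -9.15 ± 0.15 (SE; edgeR adjusted p = 1.07e-55). TRIM22 had 0.0412 and 0.0854 CPM in HT29 DMSO, against 67.9 and 65.4 CPM in t-hESC DMSO. UBE2L6 stood at 0 and 0.0854 CPM in HT29 DMSO libraries, against 48.3 and 51.3 CPM in t-hESC DMSO libraries. These genes were almost silent in HT29 and well expressed in t-hESC. DESeq2 did not call USP18 and DDX60. For BST2 the levels were 27.1 and 27.0 CPM in HT29 DMSO and 144 and 142 CPM in t-hESC DMSO. HERC5 stood at 0.453 and 0.427 CPM in HT29 DMSO libraries, against 19.5 and 17.7 CPM in t-hESC DMSO libraries. Both were higher in t-hESC, as was the level of IFI6. IFIT1 was not called at -0.38 ± 0.20 (edgeR adjusted p = 0.0655), and its adjusted p over the alternatives ran from 0.0187 to 0.446. MX1 was higher in HT29 by 0.68 ± 0.16 and ISG15 by 1.23 ± 0.069. OAS1 had 20.7 and 17.0 CPM in HT29 DMSO, against 0.330 and 0.659 CPM in t-hESC DMSO. Its level in t-hESC was close to that of a few counts.

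In the conjugation system the genes differed between the lines in opposite directions. ISG15 itself and UBA7 were higher in HT29, while UBE2L6 and HERC5 were higher in t-hESC, and HERC6 was not called. After VXN, HT29 reached 7.30 and 6.29 CPM of UBE2L6 and 6.04 and 7.25 CPM of HERC5, which was 15.7 and 13.5%, and 28.8 and 34.5%, of the mean t-hESC VXN level. IFITM1 reached 2.62 and 3.26% of that level in HT29 and TRIM22 4.27 and 4.60%.

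Traces of one line's genes were seen in libraries of the other. In HT29 VXN libraries the t-hESC markers LIN28A, DPPA4, THY1 and SOX2 stood at 0.0255 to 0.125% of their t-hESC VXN level. Of the 7 pluripotency markers 3 (LIN28A, DPPA4 and TDGF1) were called higher and 1 (DNMT3B) lower with VXN in HT29, where the 7 summed to 12.4 to 15.0 CPM in HT29 VXN libraries and 11.7 to 13.6 CPM in HT29 DMSO libraries. Of the 5 tested fibroblast markers 4, THY1 among them, were called higher, and the 6 on the list summed to 7.2 to 9.23 CPM in HT29 VXN libraries and 3.29 to 4.29 CPM in HT29 DMSO libraries. Of the 8 tested colorectal markers 2 were called higher and 4 lower with VXN in HT29. These marker counts stand beside 33.0% of all tested genes called higher and 26.9% lower in the same comparison. The part of these marker shifts in the rise of the set was not tested. TDGF1 and DNMT3B, also on the pluripotency list, stood at larger shares than LIN28A, DPPA4, THY1 and SOX2. TDGF1 had 5.60 and 5.68 CPM in HT29 VXN libraries and 179 and 166 CPM in t-hESC VXN libraries. DNMT3B had 4.42 and 4.71 CPM in HT29 VXN libraries and 620 and 657 CPM in t-hESC VXN libraries. The part of such traces in the HT29 levels of IFITM1, TRIM22, UBE2L6 and HERC5 was not tested. The colorectal markers EPCAM, KRT8, KRT18 and VIL1 were well above trace level in the t-hESC groups. EPCAM had 517 and 516 CPM in HT29 VXN libraries and 109 and 108 CPM in t-hESC VXN libraries. VIL1 had 96.1 and 94.1 CPM in HT29 VXN libraries and 7.83 and 5.64 CPM in t-hESC VXN libraries. In the t-hESC groups KRT20, LGALS4 and CEACAM5, and LYZ of the immune list, stood at 0 to 0.106% of their HT29 VXN level. IFIT2, MX2, OAS1, OAS2, OAS3, OASL, SAMD9, LAMP3, RTP4, IFI27, IFI44 and IFI44L stood at 0 to 0.916% of theirs in every t-hESC group. The part of such traces in the t-hESC values of these 12 genes was not tested.

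The genes lie on 15 chromosomes, and 25 of them fall into 10 clusters with gaps of at most 250 kb in GRCh38.p14. The IFIT cluster spans chr10:89302046-89420997, the IFITM cluster chr11:307816-320860, the OAS1, OAS3 and OAS2 cluster chr12:112906962-113011723 and the MX cluster chr21:41362027-41459214. Neighbours did not respond by the same amount. In HT29 MX2 rose by 6.80 ± 0.13 and MX1 by 4.72 ± 0.074, and OAS2 by 6.93 ± 0.12 and OAS3 by 3.08 ± 0.04. An annotated span of another RefSeq gene overlaps 19 of the 44 genes.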

How the data were processed

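Total RNA went into 10 TruSeq RNA v2 libraries, per the labels' protocols, a kit that keeps no strand. Compound, dose and replicate number come from the sample titles, because the labels' treatment entry names DMSO for all samples. STAR, FastQC 0.11.9, fastp 0.20.1 and DESeq2 1.34.0 appear in the submitters' processing notes, as do hg38 and GRCh38, without roles. Counting program and annotation: not given in the sources used here. The authors deposited raw counts per gene and repeat family, and tables of their own comparisons with log2 fold changes and adjusted p-values, used here only for their calls on the members. The 1181 repeat families held 3.52 to 5.64% of counts and were left out of library sizes. A further 4 columns of the count table matched no sample and were not used here.

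Counts were fitted with edgeR 4.0.16 (R 4.3.3): TMM, filterByExpr with a minimum count of 10 (a cutoff of 0.51 CPM), and the robust quasi-likelihood test over all 10 libraries, with 5 residual degrees of freedom. Called means a Benjamini-Hochberg adjusted p under 0.05. CPM were computed here from the deposited counts. There were 5 comparisons, and the fit was tested on simulated data. Same-numbered libraries of different groups deviated with correlations between -0.0318 and 0.0263, so the numbers do not pair them. Intervals are exact at 95%. Members, pathway lists and tests were chosen with earlier results of these data known. Values per library are given by rule for up to 8 called members a comparison with the largest change, a mean of at least 1 CPM and groups that do not overlap, and for ISG15, IFIT1, MX1, OAS1 and BST2; other members shown were picked by role. Pathway genes are up to 4 a list with the smallest p. A gene of the factor list is not reported here. Other pathway genes named by exception were chosen after their values were seen. Alternatives were 2 other scalings, 2 other filters, DESeq2 1.42.0, the replicate number as a block, a fit on the compared groups alone, each library left out, unscaled CPM and a shorter motif.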

Additional observations from a re-analysis of the deposited data

Results flagged for a closer look

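A difference of the VXN effect between the lines (HT29 minus t-hESC, by the interaction term of the edgeR fit) is what marks each of these results. It was called for 40 of the 44 genes. On the log2 scale it was 8.67 for EPSTI1, 8.56 for RSAD2, 8.35 for IFI44L, 8.18 for XAF1 and 7.46 for LAMP3, which passed the count filter only through the HT29 VXN libraries. UBE2L6 gave 7.24, OAS2 6.98 and IFI6 6.83. With 1 to 3 HT29 DMSO counts behind EPSTI1, RSAD2, IFI44L, XAF1 and UBE2L6, their sizes and order are not fixed: with a library left out the value ran from 7.82 to 10.7 for EPSTI1, 7.71 to 10.6 for RSAD2, 6.58 to 11.7 for IFI44L (edgeR adjusted p of up to 0.0386), 7.22 to 11.6 for XAF1 and 6.31 to 10.1 for UBE2L6. The highest of these came without HT29 DMSO replicate 2 and the lowest without HT29 DMSO replicate 1, except for IFI44L, lowest without t-hESC DMSO replicate 2. The range was 6.58 to 8.07 for LAMP3 (without t-hESC DMSO replicate 1 and replicate 2) and 6.23 to 8.42 for OAS2 (without t-hESC VXN replicate 2 and replicate 1). Among the members followed in every comparison IFIT1 gave 5.22, MX1 5.10, OAS1 4.88, ISG15 2.78 and BST2 1.71. Groups of 2 libraries allow no check for an outlying sample.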

How the results depend on the processing

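Between 41 and 44 members were called for VXN in HT29 under all 17 alternatives, with 43 called higher when any of the 10 libraries was left out. With only the groups compared IFITM2 was also called, lower. Leaving out a library gave 5 to 8 called members for BIX in t-hESC, 4 to 8 for VXN in t-hESC, 36 to 41 for the difference between the lines and 35 to 38 for the lines under DMSO. DESeq2 called 3158 genes in all for BIX and 4065 for VXN in t-hESC, against 5199 and 6531 with edgeR; the cause was not tested. With the replicate block 43, 8, 9, 40 and 38 members were called for VXN in HT29, BIX and VXN in t-hESC, the difference and the lines, and the block changed the side of the threshold for no member whose values are given. Without the TMM factor the members' mean sums were 4784 CPM in HT29 VXN, 1228 in HT29 DMSO, 849.2 in t-hESC BIX, 782.8 in t-hESC VXN and 734.0 in t-hESC DMSO. A shorter core (GAAA, any 2 bases, GAA) raised the share of all genes to 9.86%, by construction. Uncalled values near 0 changed sign: BST2 under VXN in t-hESC was -0.019 with upper-quartile factors, -0.002 without the filter and -0.020 to 0.029 with a library left out, and OAS1 under BIX ran from -0.994 to 0.402 with a library left out, at 0.376 without t-hESC BIX replicate 1. Depth limits the t-hESC values of members at 0 to a few counts, where falls and small rises were not detectable.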
